A study of Raphanus sativus with 8 samples.

Results

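The SQUAMOSA PROMOTER BINDING PROTEIN-LIKE (SPL) transcription factors of the age pathway were examined in shoots of radish (*Raphanus sativus* L.). Members were all unigenes (assembled transcript sequences) whose Arabidopsis match was 1 of 10 loci, SPL2, SPL3, SPL4, SPL5, SPL6, SPL9, SPL10, SPL11, SPL13 and SPL15. This rule found 45 of the 78395 unigenes, and they cover 9 of the 10 loci, because no unigene analysed here was matched to SPL13 (AT5G50570). SPL9 had 9 unigenes, SPL10 had 8, SPL6 had 7, SPL11 had 6, SPL2 had 5, SPL3 and SPL5 had 4 each, and SPL4 and SPL15 had 1 each. All 45 passed the filter on low counts, as did 65934 of all unigenes.

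In Arabidopsis, these SPL transcripts carry a site for the microRNA miR156, which is abundant in young plants and declines with age, so that SPL proteins accumulate as the plant matures. SPL proteins in turn activate flowering genes such as SOC1 and FUL, and promote another microRNA, miR172, which represses the AP2-like floral repressors. DELLA proteins, which gibberellin removes, bind SPL9 and SPL15 in Arabidopsis, which ties the age pathway to the gibberellin pathway.

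The study compared the late-bolting inbred line NH-JS1 with the early-bolting inbred line NH-JS2, to ask how gibberellic acid (GA) acts on flowering genes after a short cold treatment. In all groups, seedlings aged 4 days received 10 days of cold (vernalization) and another 14 days in a growth room. NH-JS1_GA and NH-JS2_GA plants were sprayed with 10 mM GA, NH-JS1 and NH-JS2 plants had no GA, and shoot tissue was harvested 6 days later. Each group had 2 libraries of 3 pooled plants, so that a p-value measures the spread between pools. The labels give the stage as vegetative without GA and as bolting with GA, in both lines. In the paper's bolting test with this treatment, however, only a minority of GA-sprayed NH-JS1 plants bolted, and later than this harvest. The label is therefore not taken as showing that NH-JS1_GA shoots had bolted. For NH-JS2_GA the paper's text does not report bolting at this harvest either, and the label is treated in the same way. NH-JS1 and NH-JS2 are single inbred lines, so that a difference between them belongs to these lines, not to early and late bolting in general.

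Levels are given as scaled counts, which are read counts brought to a common library size, and they are not compared between genes because transcript lengths were not used. Tests were made on the counts of all unigenes with edgeR's quasi-likelihood test, and a unigene was called at a Benjamini-Hochberg adjusted p of at most 0.05 over the 65934 tested. Library totals ranged from 23757588 to 34165272 counts. The lines stood apart on a principal component that held 83.8% of the variance. NH-JS2 replicate 2 stood apart on the next component, which held 3.96% of the variance, at 71.9 against −39.5 for NH-JS2 replicate 1. The median absolute log2 ratio between replicates, over the 45 members, was 0.13 (untreated NH-JS1), 0.23 (GA-treated NH-JS1), 0.33 (untreated NH-JS2) and 0.16 (GA-treated NH-JS2). The green leaf markers (4 of 5 genes matched) summed to between 428212 and 911137 scaled counts per library, the highest of which was NH-JS2 replicate 2. Of the 6 shoot meristem markers 1 was matched (CLV1, at 734 to 1069 scaled counts), of the 6 flower markers 2, and of the 5 root markers 0. Because these are shoot tissues and not sorted cells, fewer cells of a type and less RNA per cell cannot be told apart in any value below.

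Many member unigenes have consecutive numbers, several of these with nearly the same counts, and they may share reads. How reads that fit several unigenes were counted was not found in the sources. By their numbers the 45 unigenes form 19 runs, and unigenes of 1 run are not taken as independent of each other. A sum over the unigenes of a run or locus may count the same read more than once, so its precision may be overstated. SPL9 unigenes fall into 5 runs. Arabidopsis SPL10 and SPL11 are neighbouring genes, and here their unigenes are mixed in 2 runs, so that the name SPL10 or SPL11 on a unigene is uncertain.

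The lines differed in SPL9 without GA. SPL9 (AT2G42200), which in Arabidopsis slows leaf initiation and promotes both the adult leaf form and flowering, was lower in the early-bolting NH-JS2 for each of its 9 unigenes. Its most abundant unigene, TBIU040688, had 309 and 309 scaled counts in untreated NH-JS1, 279 and 185 in GA-treated NH-JS1, 181 and 147 in untreated NH-JS2, and 255 and 235 in GA-treated NH-JS2. The untreated lines did not overlap, and the GA-treated lines did. Here and below, overlap of libraries is a description only, because 2 libraries per group can fail to overlap without a difference. The share of all tested unigenes without overlap was not counted. The log2 fold change of NH-JS2 against NH-JS1 for this unigene was −0.91 (SE 0.192, adjusted p = 0.0067) without GA and 0.08 (SE 0.188, adjusted p = 0.81) with GA.

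**Figure D1:**
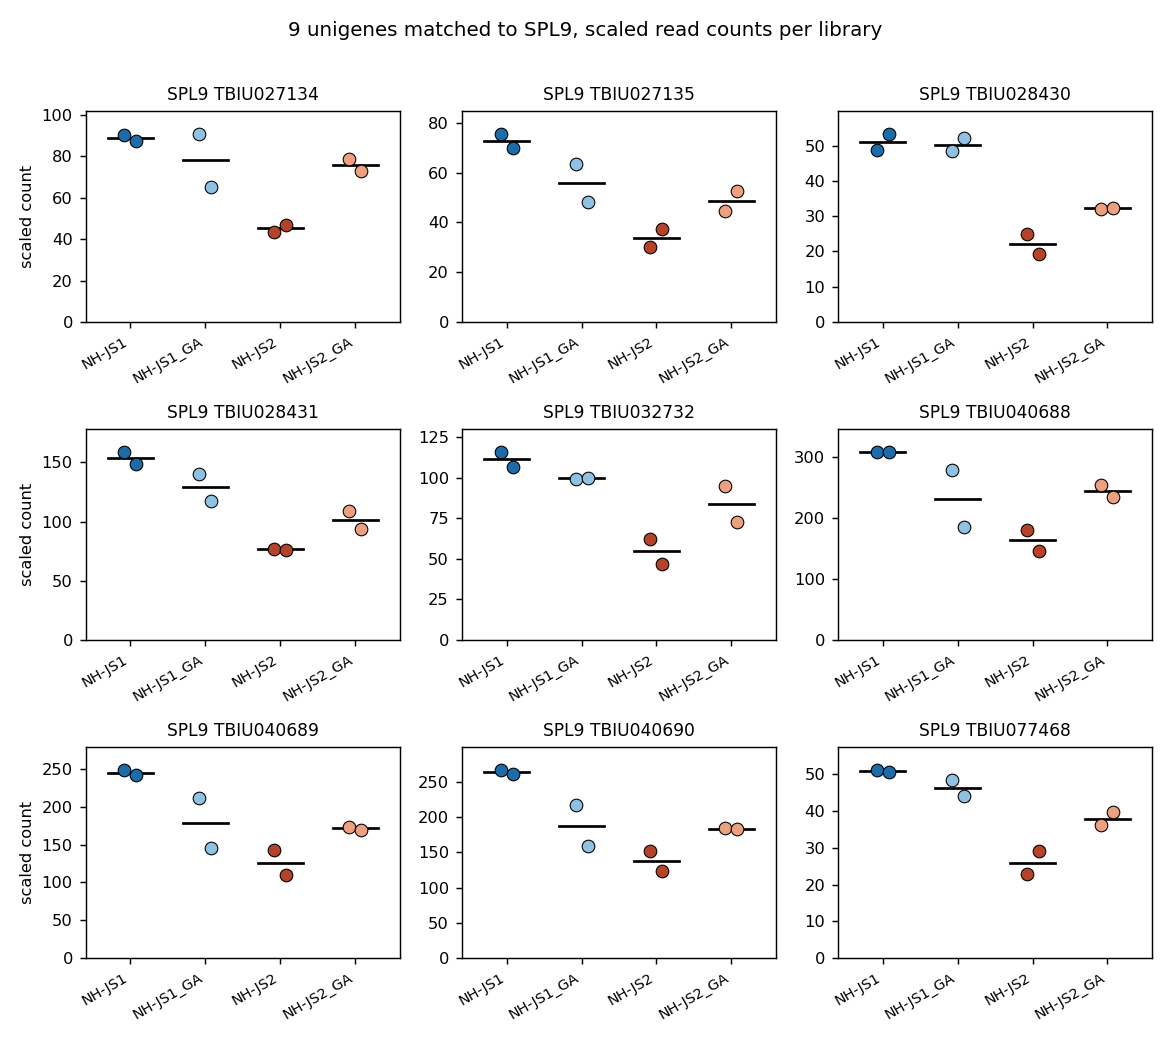
Scaled read counts (vertical axis, from 0) of the 9 SPL9 unigenes in the 4 groups; each point is 1 library of 3 pooled plants and each bar the mean of 2 libraries. For TBIU040688 both NH-JS2 libraries (181 and 147) lie below both NH-JS1 libraries (309 and 309), and the GA-treated groups overlap.

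The other unigenes of that run behaved alike. TBIU040690 had 267 and 261 scaled counts in untreated NH-JS1, 217 and 159 in GA-treated NH-JS1, 153 and 123 in untreated NH-JS2, and 184 and 184 in GA-treated NH-JS2. TBIU040689 had 249 and 241 in untreated NH-JS1, 211 and 145 in GA-treated NH-JS1, 143 and 109 in untreated NH-JS2, and 174 and 169 in GA-treated NH-JS2. In both, the lowest library was NH-JS2 replicate 2 and the highest an NH-JS1 library.

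Another run holds TBIU028431, with 159 and 148 scaled counts in untreated NH-JS1, 140 and 117 in GA-treated NH-JS1, 76.8 and 76.0 in untreated NH-JS2, and 109 and 93.3 in GA-treated NH-JS2. It had the smallest adjusted p of all members, 0.0013 by edgeR, at a log2 fold change of −1.01 (SE 0.159) between the untreated lines. Its neighbour TBIU028430 had 48.8 and 53.4 in untreated NH-JS1, 48.5 and 52.1 in GA-treated NH-JS1, 24.9 and 19.4 in untreated NH-JS2, and 32.0 and 32.3 in GA-treated NH-JS2. For both unigenes, both NH-JS2_GA libraries lay below both NH-JS1_GA libraries. Only TBIU028430 was called there.

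For TBIU027134 the scaled counts were 90.0 and 87.5 in untreated NH-JS1, 90.9 and 65.1 in GA-treated NH-JS1, 43.6 and 47.0 in untreated NH-JS2, and 78.6 and 73.0 in GA-treated NH-JS2. For TBIU027135 they were 75.7 and 70.0, 63.6 and 48.1, 30.1 and 37.3, and 44.4 and 52.7 in the same order. The untreated lines were apart in both unigenes, and the GA-treated lines overlapped. TBIU032732 had 116 and 107 in untreated NH-JS1, 99.0 and 100.1 in GA-treated NH-JS1, 62.3 and 47.0 in untreated NH-JS2, and 95.1 and 73.0 in GA-treated NH-JS2. The remaining unigene, TBIU077468, had 51.3 and 50.7 in untreated NH-JS1, 48.5 and 44.1 in GA-treated NH-JS1, 22.8 and 29 in untreated NH-JS2, and 36.2 and 39.7 in GA-treated NH-JS2. In these last unigenes the GA-treated lines did not overlap either, and neither unigene was called between the GA-treated lines.

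Without GA, the log2 fold changes of the 9 SPL9 unigenes lay between −1.18 and −0.91 (median −0.99), with adjusted p from 0.0013 to 0.0075 by edgeR. Each of the 5 runs was lower when its counts were summed, by log2 fold changes from −1.05 to −0.93. Summed over all 9 unigenes, SPL9 had 1366 and 1328 scaled counts in untreated NH-JS1, 1198 and 916 in GA-treated NH-JS1, 737 and 635 in untreated NH-JS2, and 1008 and 952 in GA-treated NH-JS2. Without GA the sum was 2.00-fold higher in NH-JS1, which is a log2 fold change of −1.0 for NH-JS2 against NH-JS1 (95% interval −1.33 to −0.67, edgeR adjusted p = 0.0010). With GA the same sum gave −0.13 (95% interval −0.46 to 0.20, edgeR adjusted p = 0.55). In the order NH-JS1, NH-JS1_GA, NH-JS2_GA, NH-JS2, no pair of neighbours was called as different for this sum, and the first and the last were. Each comparison has its own adjustment, so these calls do not rank the steps. The sum had an unadjusted edgeR p of 0.0061 for GA in NH-JS2. Of the SPL9 runs, that of TBIU028430 was called between the GA-treated lines, at −0.43 (edgeR adjusted p = 0.038).

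Of all 45 members, 16 were lower and 0 higher in NH-JS2 without GA, where 14.8% of all tested unigenes were called lower and 15.4% higher. At an unadjusted p under 0.05, 18 were lower and 1 higher (19.5% and 20.6% of all), and DESeq2 called 12 lower and 0 higher. The median log2 fold change of the members was −0.24, against 0.00 over all tested unigenes. The 16 consist of all 9 SPL9 unigenes, 4 of 8 matched to SPL10, 2 of 6 to SPL11 and 1 of 5 to SPL2. Leaving out NH-JS1 replicate 2 or NH-JS2 replicate 1 left 10 of the 16, with 9 and 8 SPL9 unigenes among them. Without NH-JS2 replicate 2 all 16 were called, and the 9 SPL9 values lay between −1.28 and −0.78.

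**Figure D2:**
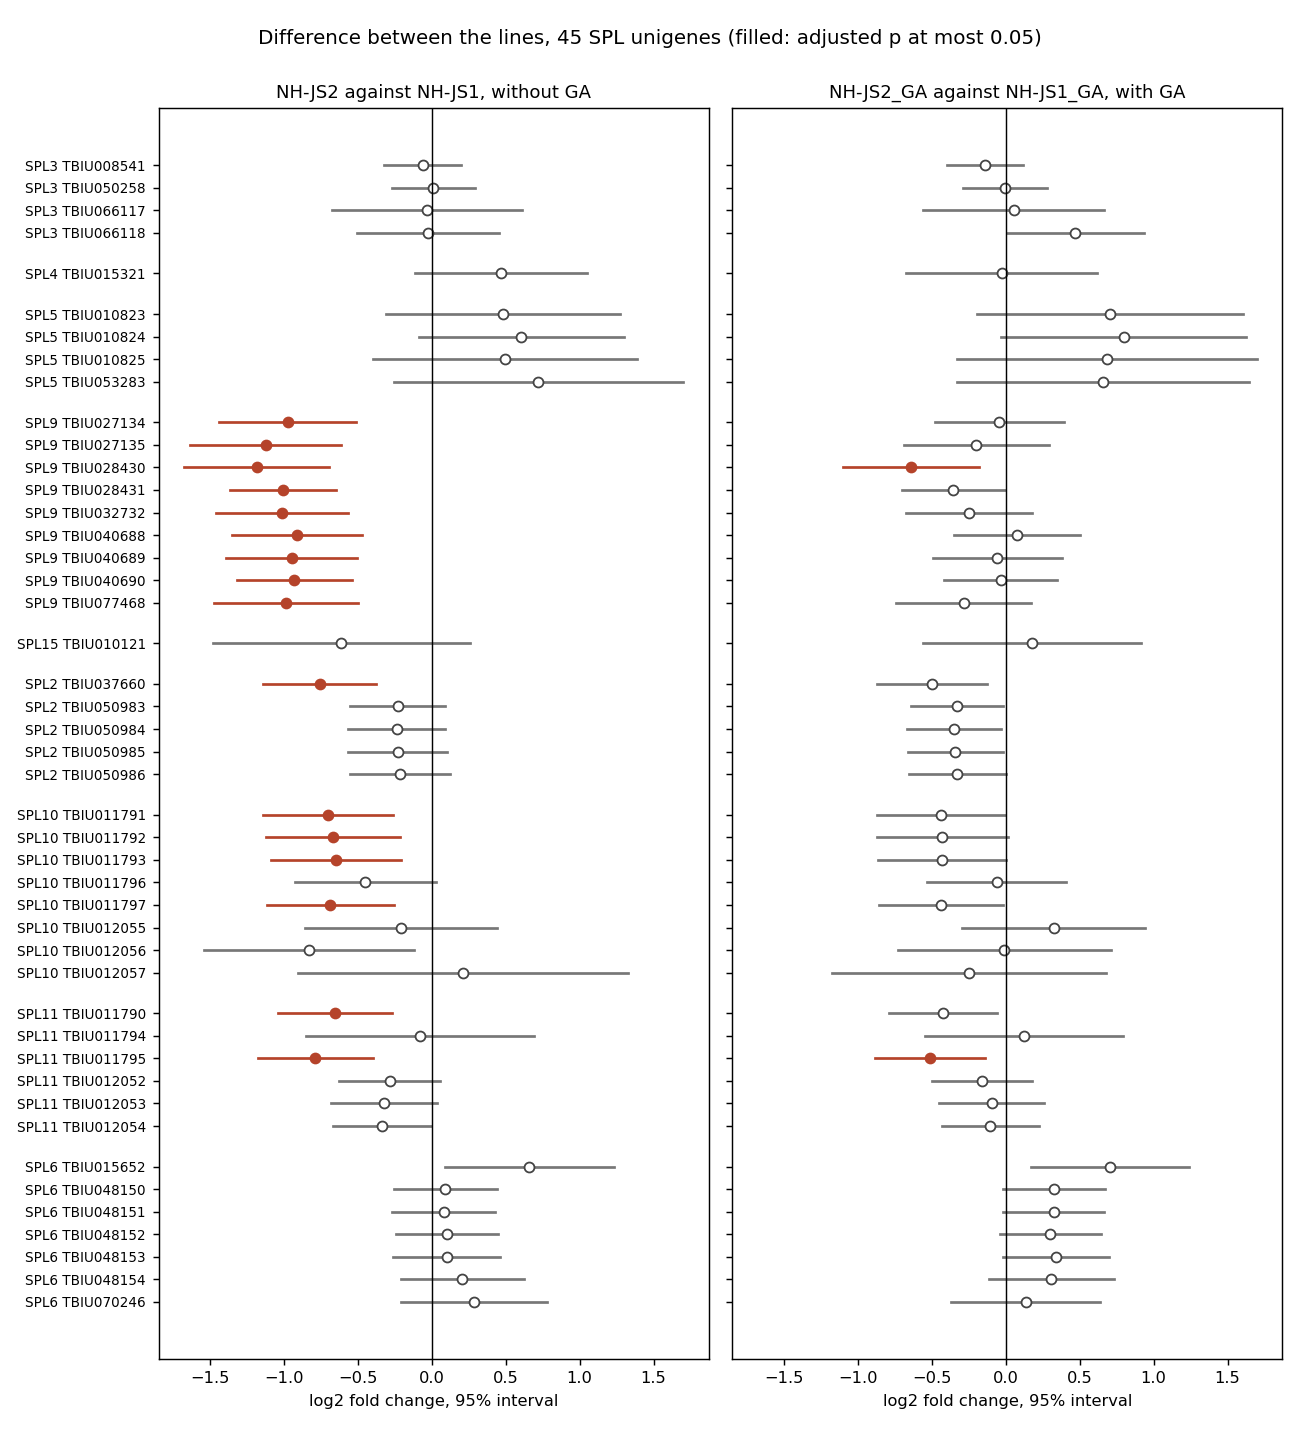
Log2 fold changes of NH-JS2 against NH-JS1 (horizontal axis, with 95% intervals) for the 45 SPL unigenes, without GA on the left and with GA on the right; filled points have an edgeR adjusted p of at most 0.05. On the left 16 points are filled and all lie below 0, among them the 9 of SPL9; on the right 2 are filled.

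Of the 2 matched flower markers, SEP3 moved with the line and AG overlapped between the lines. SEP3, a floral organ identity gene, was at 14.3 and 13.8 scaled counts in untreated NH-JS1, 14.1 and 21.0 in GA-treated NH-JS1, 255 and 228 in untreated NH-JS2, and 311 and 326 in GA-treated NH-JS2, summed over 4 unigenes. AG, another floral organ identity gene, was at 9.25 to 21.2 in every library, and no unigene analysed here was matched to AP1, LFY, AP3 or PI. The 2 summed were at 23.6 to 37.0 in the NH-JS1 libraries, with and without GA, and at 241 to 336 in those of NH-JS2. The part of SEP3 in the SPL difference between the lines was not tested.

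SPL2 (AT5G43270), SPL10 (AT1G27370) and SPL11 (AT1G27360) form the group that in Arabidopsis acts together on the shape of leaves and other lateral organs as the shoot matures. The run that starts at TBIU011790 holds 5 unigenes matched to SPL10 and 3 matched to SPL11. Its sum was 1141 and 1249 scaled counts in untreated NH-JS1, 1292 and 1061 in GA-treated NH-JS1, 637 and 901 in untreated NH-JS2, and 879 and 926 in GA-treated NH-JS2. It was lower in NH-JS2 than in NH-JS1 without GA, at a log2 fold change of −0.64 (SE 0.168, edgeR adjusted p = 0.019), and not called with GA, at −0.38 (SE 0.167, edgeR adjusted p = 0.13).

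Within it, 6 of 8 unigenes were called lower in NH-JS2 without GA, and all 8 had a lower mean there. TBIU011795, matched to SPL11, had 172 and 179 scaled counts in untreated NH-JS1, 205 and 182 in GA-treated NH-JS1, 87.2 and 118 in untreated NH-JS2, and 125 and 146 in GA-treated NH-JS2. It was lower in NH-JS2 both without GA, by −0.79 (SE 0.171, adjusted p = 0.0078), and with GA, by −0.51 (SE 0.164, adjusted p = 0.045) on the log2 scale in edgeR's test. The call with GA was lost with DESeq2 (adjusted p = 0.16), with no filter on low counts, with the replicate block (edgeR adjusted p = 0.052) and in 6 of the 8 fits that left out a library. TBIU011790, also matched to SPL11, had 78.2 and 77.4 in untreated NH-JS1, 85.9 and 89.1 in GA-treated NH-JS1, 46.7 and 52.5 in untreated NH-JS2, and 61.0 and 69.3 in GA-treated NH-JS2. In both unigenes the lines did not overlap in either treatment, and TBIU011790 was not called with GA.

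Of the 4 called SPL10 unigenes, TBIU011793 was the most abundant, with 183 and 204 scaled counts in untreated NH-JS1, 206 and 163 in GA-treated NH-JS1, 102 and 148 in untreated NH-JS2, and 136 and 138 in GA-treated NH-JS2. TBIU011791 had 180 and 201, 203 and 160, 96.5 and 140, and 131 and 137 in the same order. TBIU011792 had 178 and 202, 204 and 161, 97.6 and 144, and 134 and 137. The lower NH-JS2 library was replicate 1 in each, the reverse of SPL9, whose sum was lower in replicate 2. TBIU011797 had 184 and 204 in untreated NH-JS1, 205 and 162 in GA-treated NH-JS1, 101 and 142 in untreated NH-JS2, and 133 and 138 in GA-treated NH-JS2. These 4 had log2 fold changes of −0.70 to −0.65 between the untreated lines (edgeR adjusted p from 0.023 to 0.033), and DESeq2 called 2 of them. Each lost its call when certain single libraries were left out, among them NH-JS1 replicate 1, NH-JS1 replicate 2 and NH-JS2 replicate 1. Over the 8 fits that left out a library, the value of TBIU011793 ranged from −0.94 to −0.39.

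The other mixed run, of 6 unigenes from TBIU012052, had 0 calls. Its most abundant unigene, TBIU012054, matched to SPL11, had 226 and 260 scaled counts in untreated NH-JS1, 221 and 220 in GA-treated NH-JS1, 171 and 216 in untreated NH-JS2, and 217 and 194 in GA-treated NH-JS2. The summed run differed between the untreated lines by −0.32 on the log2 scale (SE 0.140, edgeR adjusted p = 0.12). Whether the 2 runs differ from each other was not tested.

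For SPL2, TBIU037660 had 165 and 184 scaled counts in untreated NH-JS1, 189 and 143 in GA-treated NH-JS1, 97.6 and 109 in untreated NH-JS2, and 119 and 116 in GA-treated NH-JS2. It was lower in NH-JS2 without GA by −0.76 on the log2 scale (SE 0.168, edgeR adjusted p = 0.0086). The other 4 SPL2 unigenes are 1 run, led by TBIU050986, with 210 and 169 in untreated NH-JS1, 244 and 249 in GA-treated NH-JS1, 174 and 152 in untreated NH-JS2, and 184 and 209 in GA-treated NH-JS2. None of that run was called, with log2 fold changes of −0.24 to −0.21 between the untreated lines. With GA 0 of the 5 SPL2 unigenes were called, and all 5 were lower in NH-JS2 at an unadjusted p under 0.05 (median log2 fold change −0.34). Summed over its 5 unigenes, SPL2 was lower in NH-JS2 both without GA, at −0.34 (SE 0.112, edgeR adjusted p = 0.047), and with GA, at −0.38 (SE 0.111, edgeR adjusted p = 0.033). The run of 4 has nearly equal counts and may enter this sum with shared reads. Summed alone, that run was not called, at −0.23 without GA (edgeR adjusted p = 0.22) and −0.34 with GA (edgeR adjusted p = 0.081). TBIU037660 made up between 12.6% and 21.4% of the SPL2 counts of a library.

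**Figure D3:**
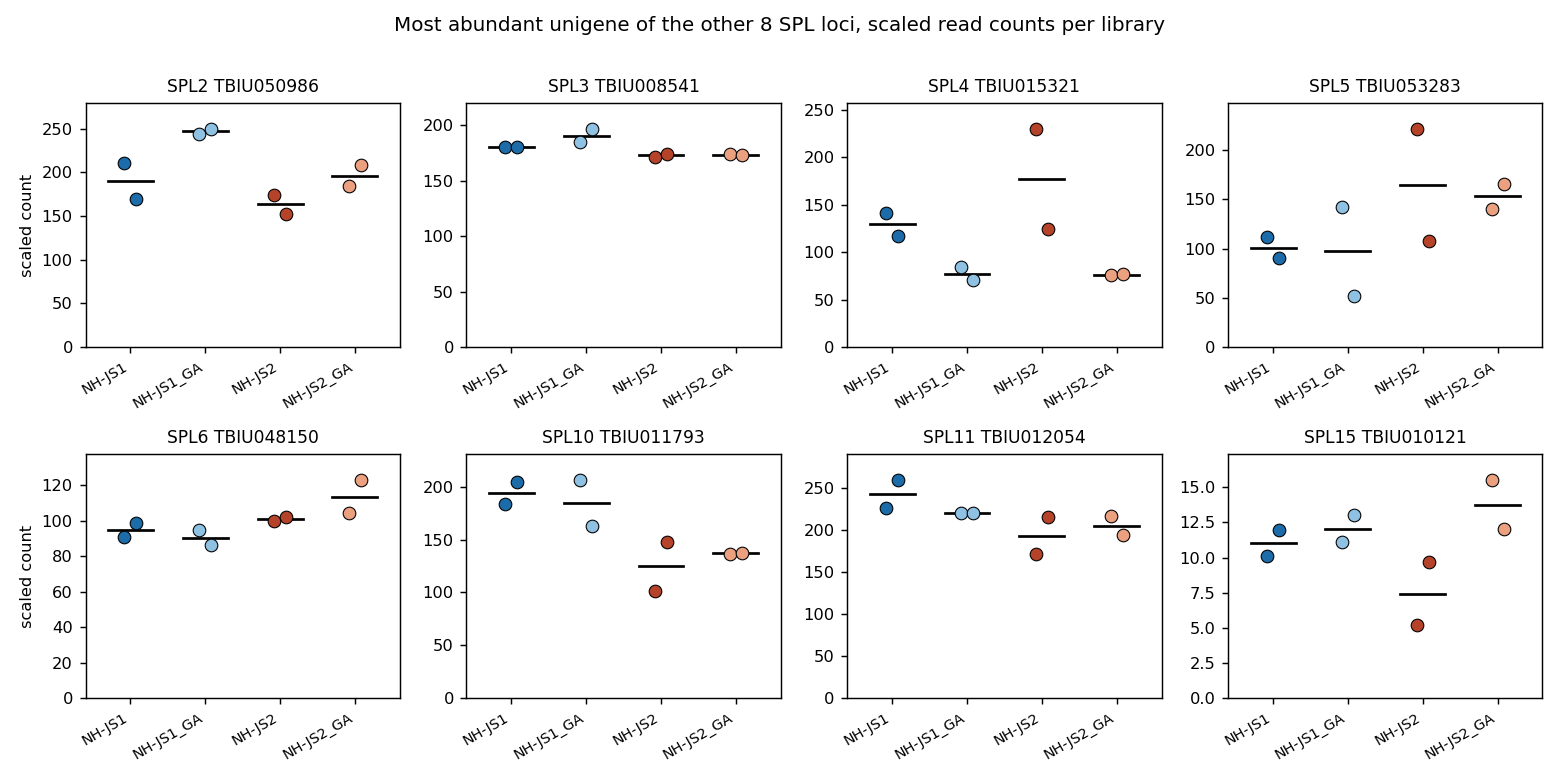
Scaled read counts (vertical axis, from 0) of the most abundant unigene of each SPL locus other than SPL9 in the 4 groups; points are libraries of 3 pooled plants and bars are means of 2 libraries. SPL4 TBIU015321 lies lowest in the GA-treated groups (71.1 to 83.8), and SPL3 TBIU008541 stays within 171 to 196 in all libraries. The SPL5 libraries lie far apart in NH-JS2 (221 and 108) and in NH-JS1_GA (142 and 52.1).

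SPL3, SPL4 and SPL5 encode small proteins that in Arabidopsis promote flowering and the genes of flower meristem identity. SPL3 (AT2G33810) had 0 calls in the 6 comparisons. TBIU008541 had 180 and 181 scaled counts in untreated NH-JS1, 185 and 196 in GA-treated NH-JS1, 171 and 174 in untreated NH-JS2, and 174 and 173 in GA-treated NH-JS2. Summed over its 4 unigenes, SPL3 gave 95% intervals for the log2 fold change of −0.23 to 0.24 for GA in NH-JS1, −0.13 to 0.35 for GA in NH-JS2, −0.30 to 0.18 for the lines without GA and −0.19 to 0.28 for the lines with GA.

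SPL4 (AT1G53160) was the member with the largest log2 fold change under GA in NH-JS2, and it was not called. Its unigene TBIU015321 had 141 and 117 scaled counts in untreated NH-JS1, 83.8 and 71.1 in GA-treated NH-JS1, 229 and 124 in untreated NH-JS2, and 75.5 and 76.7 in GA-treated NH-JS2. Every library with GA lay below every library without GA. The log2 fold change with GA was −0.74 (SE 0.270, adjusted p = 0.56) in NH-JS1, −1.23 (SE 0.269, adjusted p = 0.30) in NH-JS2 and −0.99 (SE 0.190, adjusted p = 0.13) averaged over the lines in edgeR's test. It passed in NH-JS2 and averaged over the lines with DESeq2. The size of the values in NH-JS2 and averaged over the lines rested on the 2 untreated NH-JS2 libraries, which lay far apart. Without NH-JS2 replicate 2, the library that stood apart, the values in NH-JS2 and averaged over the lines were −1.58 (edgeR adjusted p = 0.025) and −1.16 (edgeR adjusted p = 0.011), and without NH-JS2 replicate 1 they were −0.71 (edgeR adjusted p = 0.19) and −0.72 (edgeR adjusted p = 0.053). Between the untreated lines SPL4 was not called, at a log2 fold change of 0.47 (edgeR adjusted p = 0.21) for NH-JS2 against NH-JS1, and this value was 0.82 without NH-JS2 replicate 2 (edgeR adjusted p = 0.0092) and −0.06 without NH-JS2 replicate 1 (edgeR adjusted p = 0.86).

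SPL5 (AT3G15270) had 0 calls, and replicate libraries lay far apart in GA-treated NH-JS1 and in untreated NH-JS2. TBIU053283 had 112 and 90.3 scaled counts in untreated NH-JS1, 142 and 52.1 in GA-treated NH-JS1, 221 and 108 in untreated NH-JS2, and 141 and 165 in GA-treated NH-JS2. The other 3 unigenes are a run, whose sum was 146 and 138 in untreated NH-JS1, 93.9 and 52.1 in GA-treated NH-JS1, 265 and 133 in untreated NH-JS2, and 97.2 and 141 in GA-treated NH-JS2. NH-JS1_GA lay below NH-JS1 in that run, and the NH-JS2 groups overlapped. Averaged over the lines, the run gave −0.86 with GA (SE 0.251, edgeR adjusted p = 0.26).

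SPL6 (AT1G69170), which in Arabidopsis is known from immunity more than from the change of phase, had 0 calls. TBIU048150 had 90.8 and 98.5 scaled counts in untreated NH-JS1, 95 and 86.1 in GA-treated NH-JS1, 99.6 and 102 in untreated NH-JS2, and 104 and 123 in GA-treated NH-JS2. All 7 SPL6 unigenes had values above 0 for NH-JS2 against NH-JS1 in both treatments, with medians of 0.10 without GA and 0.32 with GA on the log2 scale, and the smallest adjusted p was 0.052. SPL15 (AT3G57920), the close relative of SPL9 that in Arabidopsis promotes flowering at the shoot apex, was scarce. Its match had a deposited identity of 53.28%, the lowest of all members, so that the name SPL15 is uncertain here. Names of other members with low identity are less certain too, such as SPL6 TBIU015652 (56.94%), SPL6 TBIU048150 (67.03%) and SPL3 TBIU050258 (69.33%). The SPL15 unigene TBIU010121 had 10.1 and 12 scaled counts in untreated NH-JS1, 11.1 and 13 in GA-treated NH-JS1, 5.19 and 9.68 in untreated NH-JS2, and 15.5 and 12 in GA-treated NH-JS2. The untreated NH-JS2 libraries were the lowest, and the difference between the untreated lines, −0.61 on the log2 scale with a 95% interval of −1.48 to 0.26, was not detectable at this depth.

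With GA, 2 of 45 members were lower in the early-bolting line and 0 higher, where 14.3% of all tested unigenes were called lower and 14.4% higher. These were SPL9 TBIU028430, at −0.64 (SE 0.202, edgeR adjusted p = 0.043), and SPL11 TBIU011795. Neither was called with DESeq2, with the low-count filter left off or with the replicate block, and each was called in 2 of the 8 fits that left out a library, those without NH-JS2 replicate 1 or 2. At an unadjusted p under 0.05, 11 members were lower and 2 higher (19.1% and 19.5% of all). DESeq2 called 0 in either direction. The median log2 fold change of the members was −0.06, against −0.01 over all tested unigenes.

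No member was called with GA within either line by edgeR's test. In NH-JS1, 0 of 45 were called, where 0.0819% of all tested unigenes were called in either direction, and at an unadjusted p under 0.05 there were 4 higher and 5 lower (3.22% and 4.75% of all), with 0 called by DESeq2. In NH-JS2, 0 of 45 were called, where 0.0637% of all were, and at an unadjusted p under 0.05 there were 11 higher and 1 lower (3.74% and 5.03% of all), with 1 lower (SPL4) called by DESeq2. The median log2 fold change of the members was −0.07 in NH-JS1, against 0.00 over all tested unigenes, and 0.21 in NH-JS2, against −0.01. Averaged over the lines, 0 of 45 were called, against 0.152% of all, and at an unadjusted p under 0.05 there were 7 higher and 4 lower (4.85% and 7.2% of all), with 1 lower (SPL4) called by DESeq2.

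**Figure D4:**
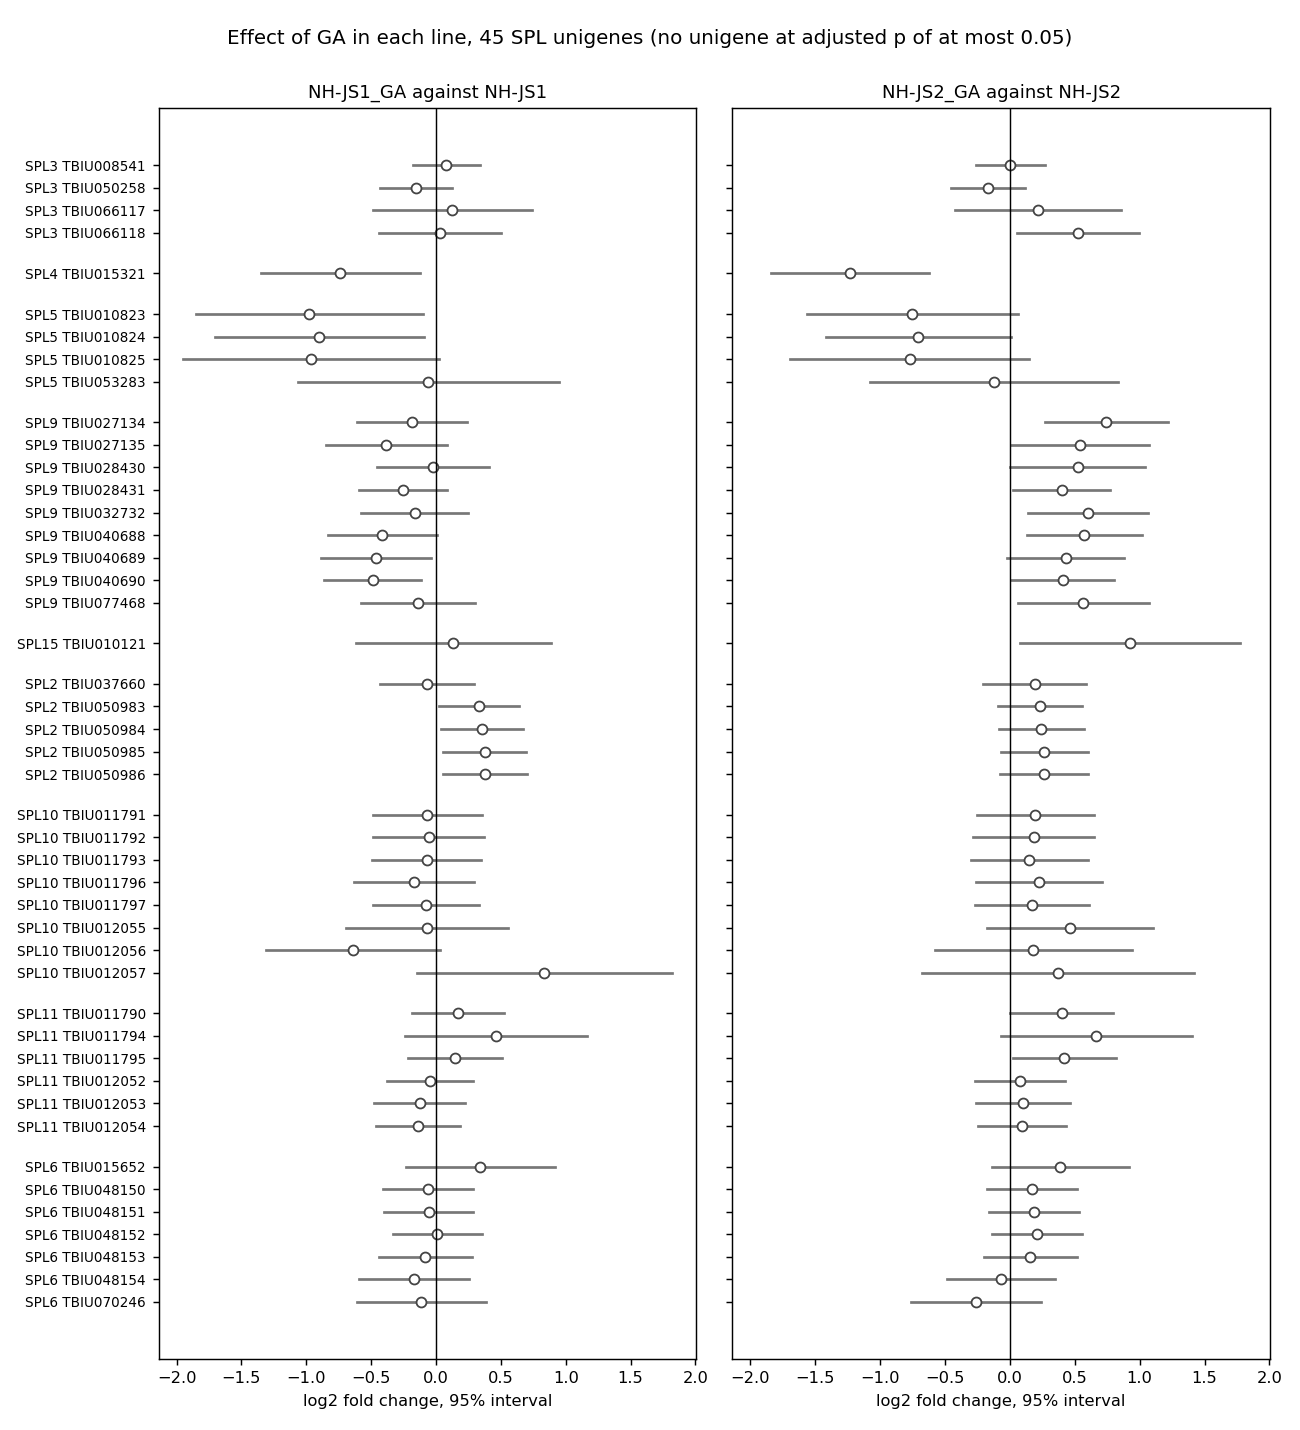
Log2 fold changes with GA (horizontal axis, with 95% intervals) for the 45 SPL unigenes, in NH-JS1 on the left and in NH-JS2 on the right; 0 unigenes have an edgeR adjusted p of at most 0.05. The 9 SPL9 points lie between −0.49 and −0.02 in NH-JS1 and between 0.40 and 0.74 in NH-JS2, and SPL4 lies at −0.74 and −1.23.

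The sign of the SPL9 values with GA was opposite in the lines. In NH-JS1 the 9 unigenes had log2 fold changes of −0.49 to −0.02, and 2 had an unadjusted p under 0.05. In NH-JS2 they had values of 0.40 to 0.74, and 7 had an unadjusted p under 0.05, with a smallest adjusted p of 0.46 by edgeR. The NH-JS2 libraries without GA are also those of the line comparison above, so both results rest on the same 2 libraries.

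The summed SPL9 counts gave −0.34 with GA in NH-JS1 (95% interval −0.67 to −0.01, edgeR adjusted p = 0.61) and 0.53 in NH-JS2 (95% interval 0.20 to 0.86, edgeR adjusted p = 0.45). The difference of the GA effects, which equals the line difference with GA minus that without GA, was 0.87 (95% interval 0.41 to 1.34), with an unadjusted edgeR p of 0.0025 and an adjusted p of 0.72. By single unigenes it ranged from 0.54 to 0.99, with 8 of 9 at an unadjusted p under 0.05 and a smallest edgeR adjusted p of 0.98. Those 8 were the only members higher at that level and 0 were lower, where 2.16% of all tested unigenes were higher and 2.06% lower. Over all 45 members 0 were called for this difference, where 0.0592% of all tested unigenes were, and DESeq2 called 0. Without any 1 of the 8 libraries, the difference for TBIU040688 stayed between 0.73 and 1.33, and its edgeR adjusted p between 0.21 and 1.

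The SPL2 run of 4 unigenes had values above 0 with GA in both lines. In NH-JS1 they were 0.33 to 0.38 on the log2 scale, each with an unadjusted p under 0.05, and in NH-JS2 they were 0.23 to 0.26. Summed, the run gave 0.31 averaged over the lines (SE 0.090, edgeR adjusted p = 0.26). Both NH-JS1_GA libraries of TBIU050986 (244 and 249) lay above both NH-JS1 libraries (210 and 169), as did both NH-JS2_GA libraries (184 and 209) above both NH-JS2 libraries (174 and 152).

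SPL13B (AT5G50670), a copy of SPL13 in Arabidopsis, is not among the 10 loci and was looked up because SPL13 had no unigene. It had 6 unigenes, of which 4 were lower in NH-JS2 without GA and 2 with GA (14.8% and 14.3% of all tested unigenes), while DESeq2 called 0 in both. TBIU001037 had 127 and 111 scaled counts in untreated NH-JS1, 116 and 103 in GA-treated NH-JS1, 77.8 and 70.5 in untreated NH-JS2, and 85.8 and 69.3 in GA-treated NH-JS2, and differed by −0.67 between the untreated lines (edgeR adjusted p = 0.017). TBIU016198 had 220 and 239 in untreated NH-JS1, 204 and 211 in GA-treated NH-JS1, 159 and 192 in untreated NH-JS2, and 150 and 152 in GA-treated NH-JS2, and differed by −0.46 with GA (edgeR adjusted p = 0.029).

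Other genes of the age pathway were called between the lines, where without GA 14.8% of all tested unigenes were lower and 15.4% higher in NH-JS2, and with GA 14.3% and 14.4%. With GA within a line 0 of them were called, where only 0.0819% (NH-JS1) and 0.0637% (NH-JS2) of all tested unigenes were. The AP2-like floral repressors, which miR172 represses, had 21 tested unigenes, of which 7 were lower and 0 higher in NH-JS2 without GA, and 7 lower and 0 higher with GA. TOE1 led that list by abundance, with TBIU052092 at 2829 and 2671 scaled counts in untreated NH-JS1, 2246 and 2168 in GA-treated NH-JS1, 1411 and 1750 in untreated NH-JS2, and 1252 and 1013 in GA-treated NH-JS2. It was lower in NH-JS2 by −0.80 (edgeR adjusted p = 0.0028) without GA and by −0.96 (edgeR adjusted p = 0.0010) with GA on the log2 scale. TOE3 TBIU009094 had 154 and 165 in untreated NH-JS1, 106 and 94.1 in GA-treated NH-JS1, 61.2 and 60.8 in untreated NH-JS2, and 63.1 and 54.5 in GA-treated NH-JS2. Both libraries of each NH-JS2 group lay below all NH-JS1 libraries for both unigenes. TOE1 had 6 tested unigenes, and values of the others are not given here.

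**Figure D5:**
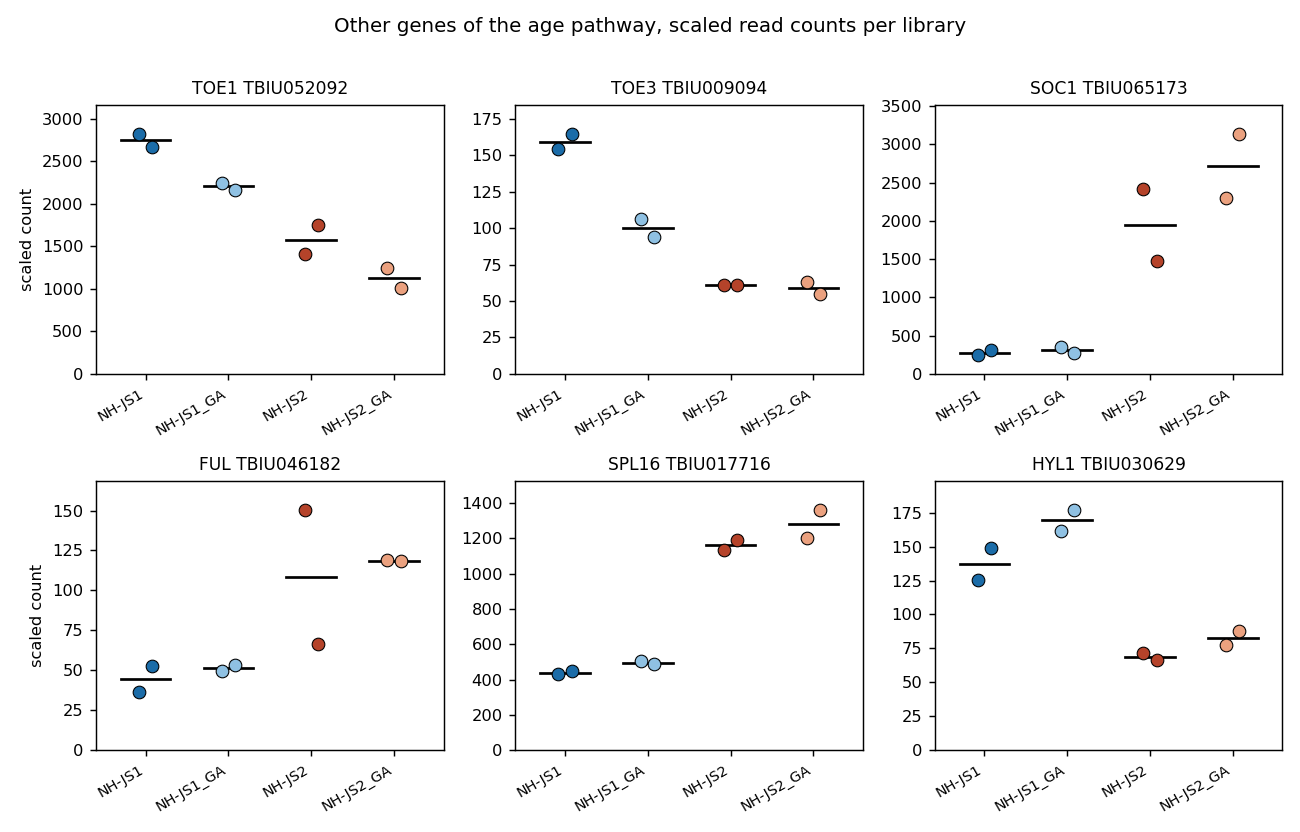
Scaled read counts (vertical axis, from 0) of 6 unigenes of the age pathway other than the SPL members in the 4 groups; points are libraries of 3 pooled plants and bars are means of 2 libraries. TOE1 TBIU052092, TOE3 TBIU009094 and HYL1 TBIU030629 are lower and SOC1 TBIU065173, FUL TBIU046182 and SPL16 TBIU017716 higher in NH-JS2, without and with GA.

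Genes that SPL proteins activate in Arabidopsis had 15 tested unigenes, with 5 higher and 4 lower in NH-JS2 without GA and 8 higher and 4 lower with GA. SOC1, an integrator of flowering signals, had 250 and 307 scaled counts in untreated NH-JS1, 350 and 274 in GA-treated NH-JS1, 2418 and 1474 in untreated NH-JS2, and 2301 and 3141 in GA-treated NH-JS2 for TBIU065173. The other SOC1 unigene, TBIU057467, had 104 and 120 in untreated NH-JS1, 154 and 108 in GA-treated NH-JS1, 1064 and 648 in untreated NH-JS2, and 951 and 1313 in GA-treated NH-JS2. TBIU065173 was higher in NH-JS2 by 2.81 on the log2 scale without GA (edgeR adjusted p = 6.1e-05) and by 3.12 with GA (edgeR adjusted p = 3.4e-05). FUL TBIU046182, a MADS-box gene of the shoot apex and fruit, had 36.2 and 52.5 in untreated NH-JS1, 49.5 and 53.1 in GA-treated NH-JS1, 150 and 66.4 in untreated NH-JS2, and 119 and 118 in GA-treated NH-JS2. AGL42 TBIU032392, a relative of SOC1, went the other way, with 630 and 680 in untreated NH-JS1, 625 and 714 in GA-treated NH-JS1, 419 and 393 in untreated NH-JS2, and 468 and 425 in GA-treated NH-JS2. FUL had 4 tested unigenes and AGL42 had 5.

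SPLs without a miR156 site had 9 tested unigenes, of which 1 was higher and 1 lower in NH-JS2 without GA. SPL16 TBIU017716 had 430 and 449 scaled counts in untreated NH-JS1, 506 and 486 in GA-treated NH-JS1, 1135 and 1190 in untreated NH-JS2, and 1200 and 1362 in GA-treated NH-JS2. It was higher in NH-JS2 by 1.4 (edgeR adjusted p = 1.5e-05) without GA and by 1.37 (edgeR adjusted p = 1.7e-05) with GA. SPL16 had 4 tested unigenes, and TBIU017716 was the only unigene of this list called higher in either treatment. SPL7 TBIU060771, a copper response regulator in Arabidopsis, had 560 and 589 in untreated NH-JS1, 627 and 591 in GA-treated NH-JS1, 447 and 373 in untreated NH-JS2, and 502 and 568 in GA-treated NH-JS2. It was lower in NH-JS2 without GA, at −0.48 (edgeR adjusted p = 0.015). SPL7 had 3 tested unigenes, and the others were not called between the lines.

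Genes of the microRNA and trans-acting small RNA pathways, among them 6 unigenes of RDR6 and 2 of SGS3, had 43 tested unigenes, with 4 higher and 11 lower without GA and 4 higher and 7 lower with GA. HYL1 TBIU030629, a partner of the microRNA-processing enzyme, had 125 and 149 scaled counts in untreated NH-JS1, 162 and 177 in GA-treated NH-JS1, 71.6 and 66.4 in untreated NH-JS2, and 77.5 and 87.8 in GA-treated NH-JS2. SGS3 TBIU058535, which acts with RDR6 in making trans-acting small RNAs, had 447 and 491 in untreated NH-JS1, 463 and 550 in GA-treated NH-JS1, 986 and 1029 in untreated NH-JS2, and 901 and 816 in GA-treated NH-JS2. HYL1 TBIU030629 was lower and SGS3 TBIU058535 higher in NH-JS2 in both treatments. HYL1 had 5 tested unigenes and SGS3 had 2, and values of the others are not given here. DELLA genes, the repressors that gibberellin removes, had 6 tested unigenes with 1 called. RGA TBIU046318 had 1954 and 2121 in untreated NH-JS1, 2692 and 2406 in GA-treated NH-JS1, 3257 and 2880 in untreated NH-JS2, and 3362 and 3466 in GA-treated NH-JS2. It was higher in NH-JS2 by 0.59 (edgeR adjusted p = 0.0053) without GA and by 0.42 (edgeR adjusted p = 0.027) with GA. RGA had 2 tested unigenes, and the other was not called between the lines in either treatment. The levels of miR156 and miR172 were not analysed here.

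The unigenes most like SPL9 TBIU040688 over the 8 libraries, among 55453 matched to other loci, were TBIU029271 and TBIU029270 (AT5G11950, annotated as a putative lysine decarboxylase), with Pearson r of log2 CPM of 0.98 each. The next were TBIU044455 (AT1G20270, annotated as an oxygenase) at 0.98, TBIU063911 (AT1G12820, annotated as an auxin signaling F-box gene) at 0.97 and TBIU018091 (AT1G69690, annotated as a TCP transcription factor) at 0.96. These are descriptions over libraries that share 4 groups and 2 lines.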

How the data were processed

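RNA-seq was run on 8 libraries, 2 in each of 4 groups taken from the labels of line and treatment. A raw count for each unigene and library, at least 1 everywhere, was deposited by the authors, who aligned trimmed reads to the unigene set by Bowtie2 2.1.0. TopHat is named as well in the submitters' processing notes. The authors also deposited normalized counts, treated as a score and not used for tests, and fold changes, which were not used. The percent identity of each Arabidopsis match, as deposited, was not used to choose members. Of all unigenes, 60161 carry a match.

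Counts were tested in R 4.3.3 with edgeR 4.0.16 (filterByExpr by group, TMM, 1 mean per group, 6 comparisons in 1 fit). DESeq2 1.42.0 was an alternative, as were RLE factors, no filter on low counts, fits of only the groups compared, a replicate block, a threshold of 0.01, the study's criteria (log2 fold change of at least 0.6, adjusted p of at most 0.01, read counts of at least 500, taken here as the mean scaled count of 1 of the groups compared), subtracting 1, sums over the unigenes of a locus, and leaving out each library. Sums over runs of consecutive unigene numbers were added after the data were seen. Scaled counts are counts divided by the effective library size and multiplied by the mean size. The scripts were tested on simulated data. Figures were drawn with matplotlib 3.10.9.

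Members and gene lists were chosen with earlier results of these data known. Given with values per library were the most abundant unigene of each locus, every called member, at most 3 called unigenes of each other list, and SOC1, FUL and TOE1. SPL13B was looked up beside SPL13. Unigenes have no coordinates or sequences here. Libraries of a group are separate pools, and precision is limited by having 2 per group and, for members with few counts, by depth.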

Additional observations from a re-analysis of the deposited data

How the results depend on the processing

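With 2 pools per group, unigenes of small difference could not be told from the spread between pools, and SPL15 and the least abundant members also had few counts. For the lines without GA, the 16 calls of lower members became 4 of 9 loci (SPL2, SPL9, SPL10 and SPL11) when counts were summed over the unigenes of a locus, 7 of 19 runs when summed over runs, and 0 by the study's criteria as read here, since no member reached a mean scaled count of 500 in a group. For the lines with GA, the 2 lower members became 0 with DESeq2, with no filter on low counts, with the replicate block, at an adjusted p of 0.01 and by the study's criteria, and 1 in a fit of only the groups compared (SPL11 TBIU011795), over loci (SPL2, while SPL9 and SPL11 were not called) and over runs (SPL9 TBIU028430 with its neighbour). For GA in NH-JS2 and for GA averaged over the lines, the 0 lower members became 1 with DESeq2. Leaving out each library in turn gave 10 to 20 lower and 0 to 1 higher for the lines without GA, 0 to 3 lower and 0 to 2 higher for the lines with GA, and 0 to 1 lower for GA in NH-JS2 and for GA averaged over the lines. In those fits a group left with 1 library was assumed to vary like the others.

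The replicate numbers were not used as pairs, since the study's methods use no replicate block. Deviations of libraries with the same number correlated between −0.08 and 0.12 across groups. With the replicate block all 16 calls for the lines without GA remained. The cause of these changes was not tested, beyond the fewer items tested in the sums. Of the values of single unigenes under all alternatives, 49 lost a call, 15 gained one and 2098 kept their side. A fit of only the groups compared could not be made for the difference of the GA effects and for GA averaged over the lines, which need all groups.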
